A study of Mus musculus with 15 samples.

Results

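The licensing genes examined here are 10 of the 51912 genes in the expression table: Mcm2, Mcm3, Mcm4, Mcm5, Mcm6, Mcm7, Mcm10, Cdc6, Cdc45 and Cdt1. They were selected by symbol, each symbol matched 1 gene identifier, and all 10 passed the filter on low counts. The RNA came from wild-type mouse B cells, with 3 biological replicates in each of 5 groups. D6 is the unsorted culture after 6 days on the 40LB feeder layer with IL-4 at 100 ng/ml. The other 4 groups were sorted on day 8, after 2 further days without feeders or stimulation: IgE iGC and IgG1 iGC, the cells named iGC in the labels, and IgE PC and IgG1 PC, the plasma cells. All cells therefore came through the same feeder and IL-4 culture, no strain or animal age was given, and the labels do not say how the sort gates were set. The study's title concerns the regulation of IgE plasma cell differentiation and survival, and its design compares expression among all groups.

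Licensing loads an inactive helicase onto replication origins before S phase. The origin recognition complex recruits CDC6 and CDT1, and these load double rings of the MCM2 to MCM7 hexamer, the core of the replicative helicase. CDC45 and the GINS complex later join the hexamer to form the active CMG helicase, and MCM10 is needed for its activation. Many of these genes are known E2F targets that rise towards S phase, while CDT1 protein is destroyed in S phase and restrained by geminin.

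The promoters of these genes are shown because E2F-type sites are the feature they are best known to share. RefSeq promoters, from 250 bases before to 50 bases after each transcript start (GRCm38.p6), were at hand for 9 of the 10 genes, and Mcm4 was not matched. An E2F-type motif was searched as any of TTTCCCGC, TTTCGCGC, TTTGCCGC and TTTGGCGC on both strands. It was found in 6 of 9 licensing genes, against 2.6% of the 27025 genes with a promoter in the table. Related lists held it too: 6 of 11 genes of E2F and G1 to S control, 5 of 15 of origin recognition and licensing control, 3 of 9 of origin firing, 7 of 22 of polymerases and fork proteins, none of 8 of deoxynucleotide supply and 1 of 16 of mitosis. Windows of 30 bases around the matches are given 5′ to 3′ on the strand of the gene, with the matched letters in capitals. A match on the opposite strand reads as the reverse complement, and matches on opposite strands overlap in the first Mcm6 window and in the Mcm5 window. Distances refer to the RefSeq starts. By the GENCODE gene bounds printed further below, the Cdc6 window and the first Mcm7 window lie inside the gene.
Mcm3, chr1:20820275-20820304, minus strand, 19 bases after the start: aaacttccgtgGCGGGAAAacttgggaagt
Mcm5, chr8:75109347-75109376, plus strand, 153 bases before the start: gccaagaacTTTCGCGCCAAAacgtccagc
Mcm6, chr1:128359795-128359824, minus strand, 110 bases before the start: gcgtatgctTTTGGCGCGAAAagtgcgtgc
Mcm6, chr1:128359734-128359763, minus strand, 47 bases before the start: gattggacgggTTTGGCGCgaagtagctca
Mcm7, chr5:138172030-138172059, minus strand, 165 bases before the start: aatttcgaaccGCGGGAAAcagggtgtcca
Mcm7, chr5:138171849-138171878, minus strand, 16 bases after the start: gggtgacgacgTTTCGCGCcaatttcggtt
Cdc6, chr11:98908002-98908031, plus strand, 138 bases before the start: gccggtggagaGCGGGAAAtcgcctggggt
Cdt1, chr8:122568035-122568064, plus strand, 32 bases after the start: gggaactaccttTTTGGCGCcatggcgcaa

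A second match in Mcm3, TTTGGCGC, begins 38 bases after the start. Mcm2, Mcm10 and Cdc45 held no full match in the window. The Mcm10 window ends in TTTGGCG, so whether a match runs over its edge cannot be seen. CCAAT, the NF-Y-type motif, was present on either strand in 7 of 9 licensing genes, in 14 of 16 mitosis genes and in 41.1% of all genes with a promoter. TTTGAA, the CHR motif typical of mitotic genes, was present in 2 of 9 (Mcm2 and Cdc45), against 20.2% of all genes and 11 of 16 genes in the list of mitosis genes. The upstream 250 bases of Mcm6, the gene with the most E2F-type matches, and of Mcm10, which had no full match, are printed for comparison. E2F-type and CCAAT letters are in capitals, and the window's end after the start is not included.
Mcm6, chr1:128359706-128359955, minus strand: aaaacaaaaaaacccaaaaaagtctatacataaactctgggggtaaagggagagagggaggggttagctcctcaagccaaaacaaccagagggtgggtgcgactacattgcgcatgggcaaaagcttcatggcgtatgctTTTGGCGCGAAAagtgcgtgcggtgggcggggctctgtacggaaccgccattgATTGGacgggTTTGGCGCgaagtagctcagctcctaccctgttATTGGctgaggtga
Mcm10, chr2:5012792-5013041, minus strand: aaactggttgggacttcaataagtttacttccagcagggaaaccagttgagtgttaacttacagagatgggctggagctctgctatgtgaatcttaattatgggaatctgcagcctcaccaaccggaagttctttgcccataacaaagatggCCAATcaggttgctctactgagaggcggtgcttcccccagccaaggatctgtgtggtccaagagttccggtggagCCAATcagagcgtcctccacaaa

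**Figure D1:**
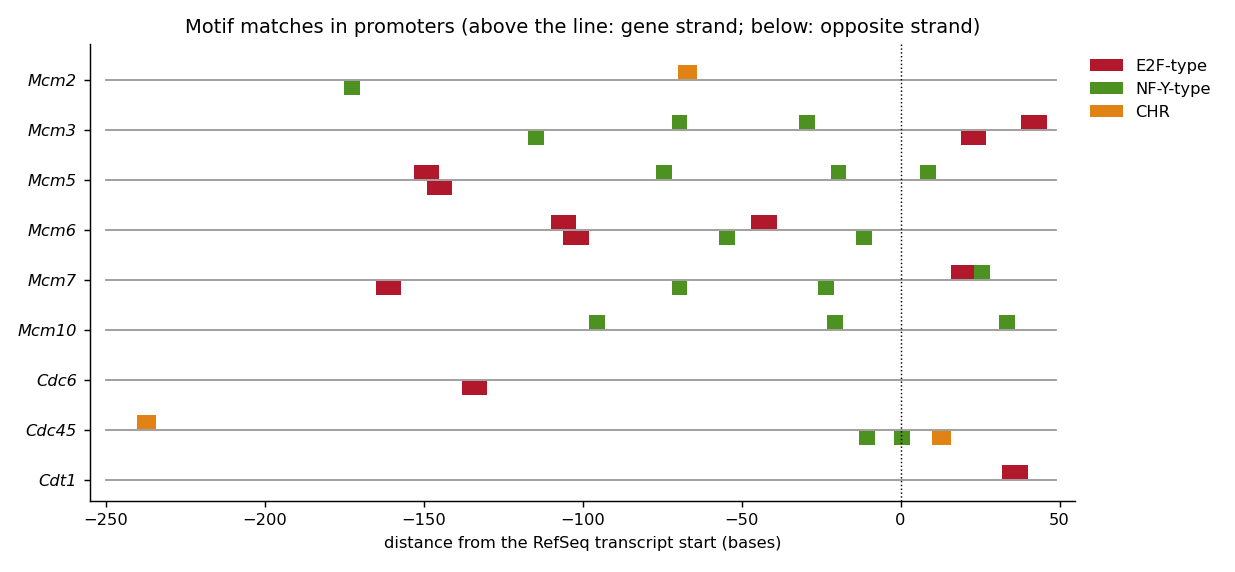
Positions of motif matches in the promoters of 9 licensing genes, with the distance from the RefSeq transcript start in bases on the x axis and 1 line per gene. E2F-type matches lie in 6 genes, NF-Y-type (CCAAT) matches in 7 and CHR matches in Mcm2 and Cdc45. For Mcm7, which has 2 promoters in the table, the one holding the E2F-type matches is drawn.

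Libraries held from 17740876 estimated counts (IgE iGC replicate 3) to 54067953 (IgG1 PC replicate 2), and raw counts of the 10 genes ran from 446 for Cdc6 to 13095 for Mcm6, so none was near the detection limit. Levels are given as CPM, counts scaled to a common library size with edgeR's TMM factors, and a gene is called where edgeR's quasi-likelihood test gave a Benjamini-Hochberg adjusted p under 0.05 over the 15692 genes tested. Immunoglobulin genes took 15.3% to 21.7% of counts in plasma cell libraries and 1.39% to 1.62% elsewhere, and comparisons with plasma cells are therefore given on more than 1 scale. Summed markers of plasma cells (8 genes) were 10995 to 22002 CPM in the PC groups and 873 to 1762 CPM elsewhere, and none of the 8 was at 0 throughout a group. Jchain alone was 5928 to 13929 CPM in the PC groups. Against D6, 7 of the 8 were called higher and 1 lower in each PC group. Slamf7 was the exception, at 534 to 570 CPM at D6, 464 to 503 in IgE PC and 268 to 312 in IgG1 PC. Fibroblast markers of the feeder layer (10 genes) summed to 245 to 372 CPM at D6, 75.9 to 201 in IgG1 PC, 24.6 to 38.3 in IgE PC and 40.6 to 79.1 in the iGC groups. Of these, Postn was at 0 outside IgG1 PC and Lum at 0 in IgE iGC and IgE PC. T cell markers stayed at or below 6.47 CPM and myeloid markers at or below 8.58 CPM in sum. The p-values rest on the spread between biological replicates, pooled over all 15 libraries, so they do not measure the spread of any group alone. Replicates were least alike in IgG1 PC. Their lowest correlation over genes was 0.978 there and 0.984 to 0.991 in the other groups. In bulk RNA, fewer cells of a type and less RNA per cell cannot be told apart.

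Across the 5 groups, Mcm2 to Mcm7 and Mcm10 shared 1 feature: each was lowest in IgE PC, with no overlap with any other group. The share of all genes with this pattern was not computed, so how common it is cannot be said. By edgeR, 30.7% of all genes were called lower in IgE PC than in IgG1 PC, 33.6% than in IgE iGC and 39.5% than at D6. These are calls in single comparisons and do not give the share with the pattern. The order of the other 4 groups differed from gene to gene. Cdc6, Cdc45 and Cdt1 were not lowest in IgE PC on the CPM scale.

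Mcm3 (ENSMUSG00000041859, chr1:20802968-20820312, minus strand, GRCm38), a subunit of the hexamer, showed the widest gap between the plasma cell groups. Its 3 libraries measured 165, 158 and 164 CPM at D6, 194, 177 and 178 in IgE iGC, 189, 169 and 168 in IgG1 iGC, 62.1, 65.6 and 58.6 in IgE PC, and 161, 185 and 189 in IgG1 PC. The IgE PC libraries stood alone at the bottom, and IgE iGC, IgG1 PC and IgG1 iGC overlapped one another. Mcm2 (ENSMUSG00000002870, chr6:88883474-88898780, minus strand), which with Mcm5 forms the gate of the ring, measured 139.6, 130.2 and 134 CPM at D6, 154, 142 and 132 in IgE iGC, 139.8, 129.6 and 126 in IgG1 iGC, 67.8, 70.4 and 63.3 in IgE PC, and 121, 124 and 126 in IgG1 PC. D6 and both iGC groups overlapped, IgG1 PC lay just under them and IgE PC far below.

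Mcm5 (ENSMUSG00000005410, chr8:75109569-75128439, plus strand) measured 135, 128 and 135 CPM at D6, 176, 159.5 and 162 in IgE iGC, 153, 142 and 139 in IgG1 iGC, 74.4, 71.9 and 73.4 in IgE PC, and 165, 181 and 181 in IgG1 PC. Here IgG1 PC and IgE iGC shared the top and overlapped. Mcm4 (ENSMUSG00000022673, chr16:15623897-15637400, minus strand), which forms the catalytic core of the helicase with Mcm6 and Mcm7, measured 163, 162 and 164 CPM at D6, 162, 151 and 155 in IgE iGC, 155, 142 and 135 in IgG1 iGC, 67.0, 64.2 and 64.2 in IgE PC, and 122, 157 and 138 in IgG1 PC. Its 4 other groups formed a chain of overlapping ranges above IgE PC.

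The other 2 core subunits had opposite places at D6. Mcm6 (ENSMUSG00000026355, chr1:128331590-128359664, minus strand) measured 288, 277 and 265 CPM at D6, 240.3, 220.0 and 206 in IgE iGC, 209, 196 and 188 in IgG1 iGC, 133, 136 and 131 in IgE PC, and 243, 253 and 235 in IgG1 PC. It was highest at D6, above every other library. Mcm7 (ENSMUSG00000029730, chr5:138164583-138172422, minus strand) measured 93.1, 89.2 and 95.5 CPM at D6, 149.9, 142 and 144 in IgE iGC, 139, 129 and 127 in IgG1 iGC, 67.1, 68.9 and 70.5 in IgE PC, and 161, 159 and 165 in IgG1 PC. Its D6 libraries lay below both iGC groups and IgG1 PC, and no neighbouring groups overlapped. The union of exons over all annotated Mcm7 transcripts covers 84 bases of Mir25 and 88 of Mir93, on the same strand. Mcm7 also shares 321 exonic bases with Ap4m1 and 64 with Cops6, both on the opposite strand. The counting strand is not given in the sources used here, so part of its level could belong to those genes.

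Mcm10 (ENSMUSG00000026669, chr2:4989714-5012791, minus strand) had the lowest level per length of the Mcm genes, with a mean of 5.35 TPM in IgE PC and 17.5 TPM in IgG1 PC. On the CPM scale it measured 19.3, 20.4 and 21.8 CPM at D6, 33.3, 30.8 and 30.5 in IgE iGC, 31.3, 26.7 and 26.1 in IgG1 iGC, 16.6, 16.6 and 16.8 in IgE PC, and 40.1, 42.6 and 38.6 in IgG1 PC. The plasma cell groups were its lowest and its highest, and only the 2 iGC groups overlapped as neighbours.

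Among the loading and activation factors, Cdc6 (ENSMUSG00000017499, chr11:98907801-98923940, plus strand) measured 27.4, 25.2 and 25.5 CPM at D6, 25.0, 22.6 and 23.0 in IgE iGC, 23.5, 19.9 and 18.1 in IgG1 iGC, 28.9, 29.6 and 27.5 in IgE PC, and 41.3, 41.4 and 39.6 in IgG1 PC. IgE PC ranked second, below IgG1 PC, and the iGC groups overlapped at the bottom. Cdc45 (ENSMUSG00000000028, chr16:18780447-18811987, minus strand) measured 21.1, 20.2 and 21.2 CPM at D6, 36.4, 34.9 and 39.6 in IgE iGC, 29.6, 28.7 and 28.8 in IgG1 iGC, 40.3, 43.5 and 44.1 in IgE PC, and 57.7, 52.4 and 49.6 in IgG1 PC. No neighbouring groups overlapped in this order. Cdt1 (ENSMUSG00000006585, chr8:122568015-122573554, plus strand) measured 27.9, 27.6 and 26.9 CPM at D6, 44.0, 43.7 and 42.3 in IgE iGC, 35.6, 36.0 and 34.5 in IgG1 iGC, 57.7, 58.5 and 60.8 in IgE PC, and 57.7, 49.5 and 55.5 in IgG1 PC. The 2 plasma cell groups shared the top on this scale and overlapped. On TPM, Cdt1 was instead highest in IgE iGC, at 33.3 to 35.2 against 26.8 to 28.4 in IgE PC and 26.3 to 30.8 in IgG1 PC, and Cdc6 had its lowest mean in IgE PC, 10.1 TPM. Cdc45 shares 209 exonic bases with Ufd1 on the opposite strand, and the body of Cdt1 overlaps that of Gm20388 without sharing exonic bases.

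**Figure D2:**
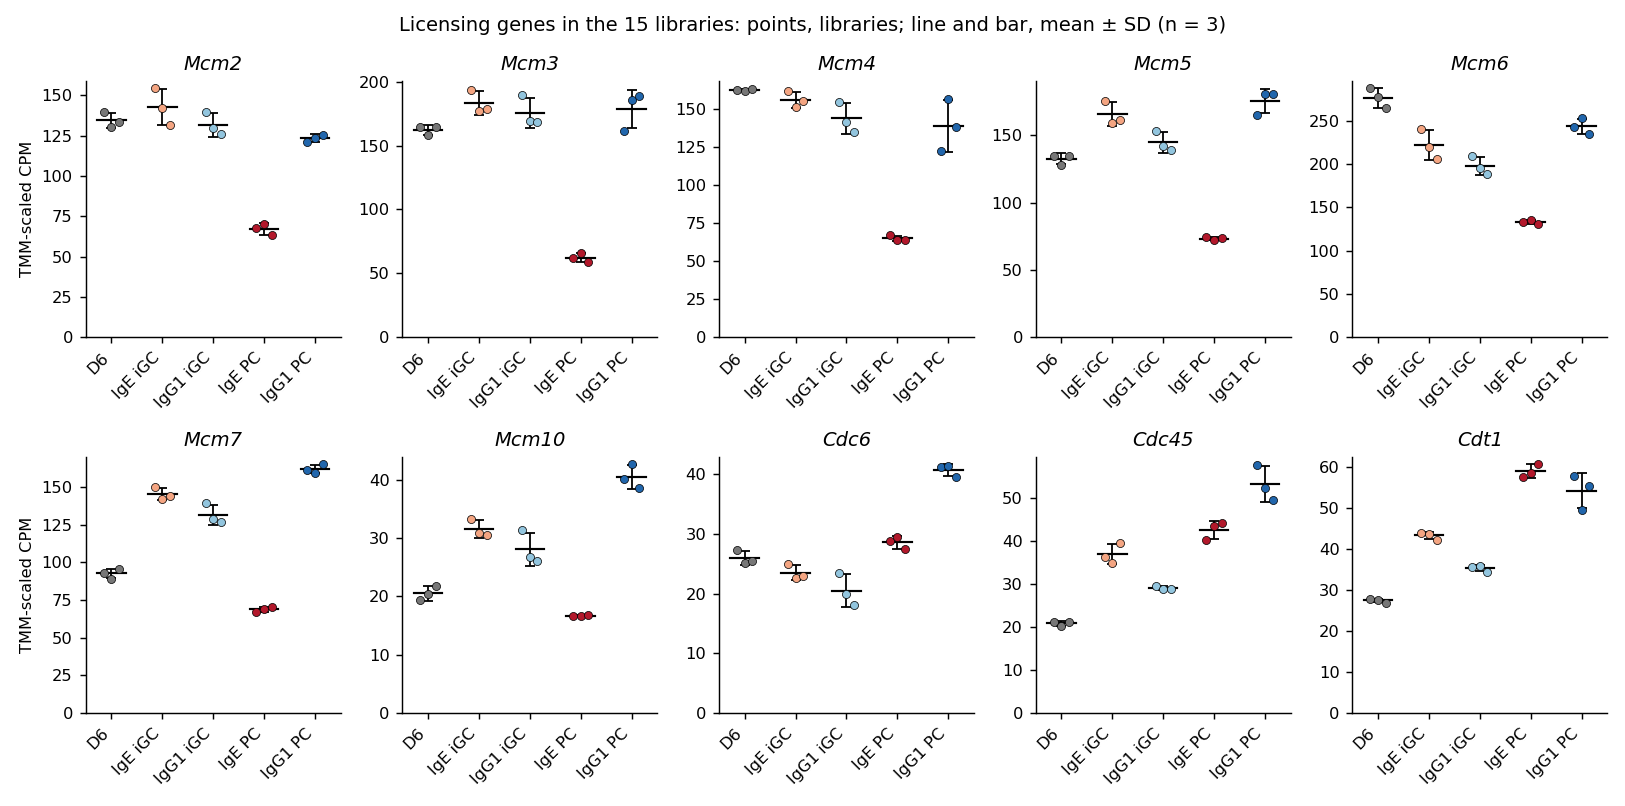
TMM-scaled CPM of the 10 licensing genes in each of the 15 libraries, with 1 panel per gene and the 5 groups on the x axis. Points are libraries, lines are means and bars are SD (n = 3). In the panels of Mcm2 to Mcm7 and Mcm10 the IgE PC points lie below all others, and in those of Cdc6, Cdc45 and Cdt1 they do not.

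The first comparison asks how the 2 kinds of plasma cell differ. In IgE PC against IgG1 PC, 9 of the 10 licensing genes were lower and none was higher, with a median log2 fold change of -0.99 beside -0.05 over all genes. By edgeR, 30.7% of all genes tested were called lower and 27.4% higher in this comparison. The hexamer genes fell by 0.87 (Mcm6) to 1.52 (Mcm3) on the log2 scale. Mcm3 was 2.87-fold lower (log2 fold change -1.52 ± 0.07, SE, adjusted p = 3.61e-10), Mcm5 was 2.40-fold lower (-1.26 ± 0.06, adjusted p = 3.11e-10) and Mcm7 was 2.35-fold lower (-1.23 ± 0.05, adjusted p = 1.71e-10). Mcm10, the activation factor, was 2.43-fold lower (-1.28 ± 0.08, adjusted p = 3.11e-09).

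The 2 loading factors and Cdc45 differed less. Cdc6 was 1.42-fold lower (-0.51 ± 0.08, adjusted p = 6.62e-05) and Cdc45 1.25-fold lower (-0.32 ± 0.06, adjusted p = 0.000549). Cdt1 had a log2 fold change of 0.12 ± 0.06 and was not called (adjusted p = 0.0709). DESeq2 called Cdt1 higher in IgE PC (0.17, adjusted p = 0.00565), as did edgeR without IgG1 PC replicate 1 (0.17, adjusted p = 0.0123) or without immunoglobulin genes (0.18, adjusted p = 0.0129), while total-count scaling turned it to -0.13 (adjusted p = 0.0451), so its direction depends on the scale. Total-count scaling shifted the median of all genes to -0.30 in this comparison and moved the split of all calls from 4303 higher and 4816 lower to 2272 and 7265. On TPM the split was 2222 higher and 4780 lower.

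Fibroblast markers moved with this comparison, since all 8 that could be tested were lower in IgE PC. IgG1 PC replicate 2 had the lowest fibroblast marker level of its group, 75.9 CPM against 199 and 201 in the others. With that library as the only IgG1 PC library, Mcm3 was at -1.57, Mcm10 at -1.35 and Cdt1 at 0.26, and the fibroblast markers had a median of -0.78 in place of -2.13. This setting was chosen after seeing the data, and its spread comes from the other groups, since the lone library is assumed to vary as they do. Plasma cell markers also differed between the groups, with 6 of 8 higher in IgE PC, and 4 of 8 B cell markers were lower. Their part in the licensing gene result was not tested.

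**Figure D3:**
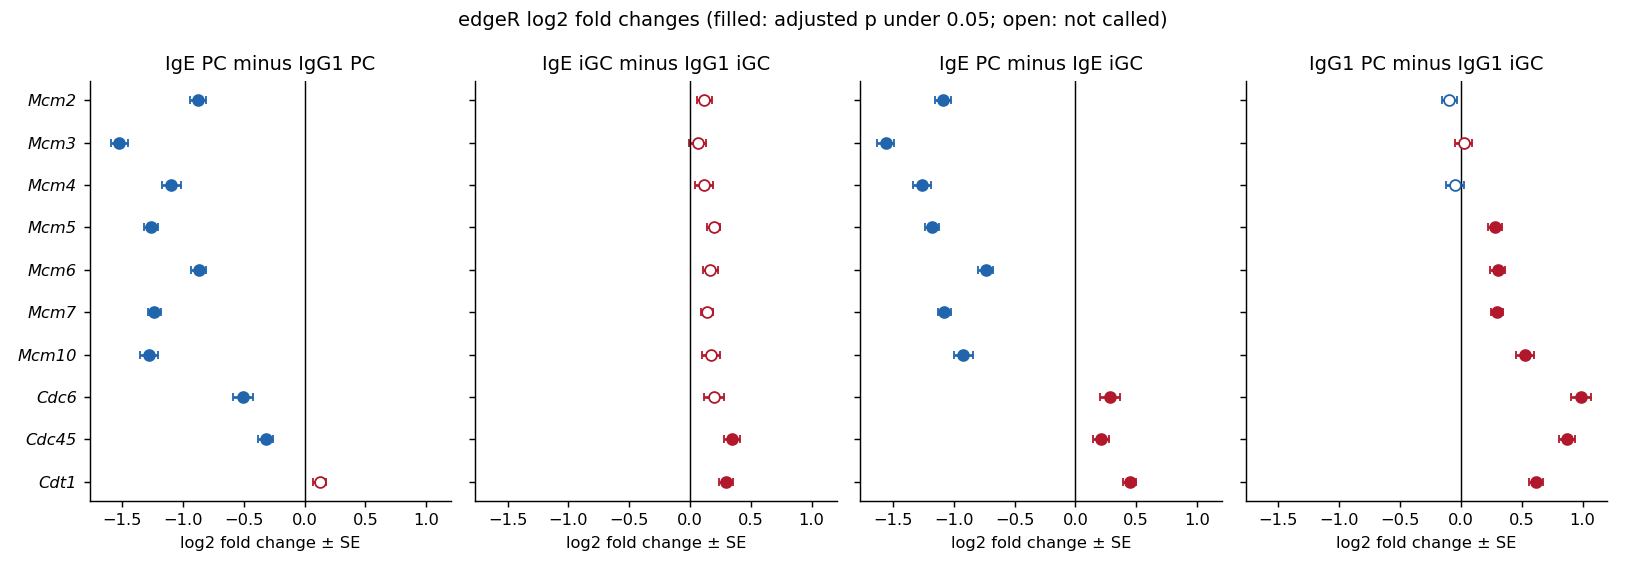
Log2 fold changes with SE of the 10 licensing genes in 4 comparisons, from edgeR; filled points had an adjusted p under 0.05. The hexamer genes and Mcm10 lie between -0.74 and -1.56 in both comparisons of IgE PC, near 0 between the iGC groups, and at or above -0.09 from IgG1 iGC to IgG1 PC.

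Summed over Mcm2 to Mcm7, TPM (a level per length) was 617 ± 6.09 (SD, n = 3) at D6, 595 ± 20.4 in IgE iGC, 546 ± 24.2 in IgG1 iGC, 165 ± 5.36 in IgE PC and 412 ± 65.3 in IgG1 PC. IgG1 PC replicate 1 stood below its group, at 337 against 451 and 449, and had the group's highest immunoglobulin share, 21.7% against 15.3% and 16.1%. The mean TPM of Cdc6, Cdc45 and Cdt1 spanned a narrower range, from 19.5 ± 0.62 in IgE PC to 26.0 ± 0.37 in IgE iGC. Summed TPM is scaled to the library total, whereas a ratio of genes within a library does not depend on that scale. The ratio of mean hexamer TPM to the mean TPM of those 3 genes was 5.18, 5.19 and 5.29 at D6, 4.003, 3.79 and 3.65 in IgE iGC, 4.37, 4.23 and 4.23 in IgG1 iGC, 1.45, 1.37 and 1.39 in IgE PC, and 2.47, 2.99 and 2.91 in IgG1 PC. No groups overlapped. This ratio was chosen after the levels were seen and is given as a description.

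The hexamer was also set against Mki67, a marker of cycling cells. Mki67 was 1370 to 1461 CPM in IgE PC and 1143 to 1400 in IgG1 PC, against 410 to 433 at D6, and it was not called between the plasma cell groups (log2 fold change 0.12 ± 0.10, adjusted p = 0.317). That value was the highest among the 20 listed mitosis genes. Their median was -0.27, with 10 called lower in IgE PC and none higher, so Mki67 does not stand for the list. The ratio of mean hexamer TPM to Mki67 TPM was 1.40 ± 0.05 (SD, n = 3) at D6, 0.77 ± 0.11 in IgE iGC, 0.89 ± 0.08 in IgG1 iGC, 0.20 ± 0.01 in IgE PC and 0.50 ± 0.04 in IgG1 PC. This ratio was lowest in IgE PC, without overlap, and the 2 iGC groups overlapped. It was also chosen after the levels were seen.

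The make-up of the hexamer transcripts also differed. Mcm3 took 15.02% ± 0.53 (SD, n = 3) of summed Mcm2 to Mcm7 TPM in IgE PC and 19.9% to 21.2% in the other 4 groups. Mcm6 took 26.7% ± 0.60 in IgE PC and 27.2% ± 1.09 at D6, against 20.1% to 21.8% in the other 3. Mcm7 took 12.6% ± 0.60 at D6 and 17.7% to 19.0% elsewhere. Mcm2 ran from 10.4% in IgG1 PC to 12.3% in IgE PC, Mcm4 from 10.1% in IgG1 PC to 13.1% at D6, and Mcm5 from 15.4% at D6 to 17.8% in IgG1 PC. As shares of expected counts, which do not correct for length, Mcm3 was again lowest in IgE PC (13.2%, against 16.9% to 19.0%) and Mcm6 again highest at D6 and in IgE PC (28.8% and 28.3%, against 21.4% to 23.9%).

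**Figure D4:**
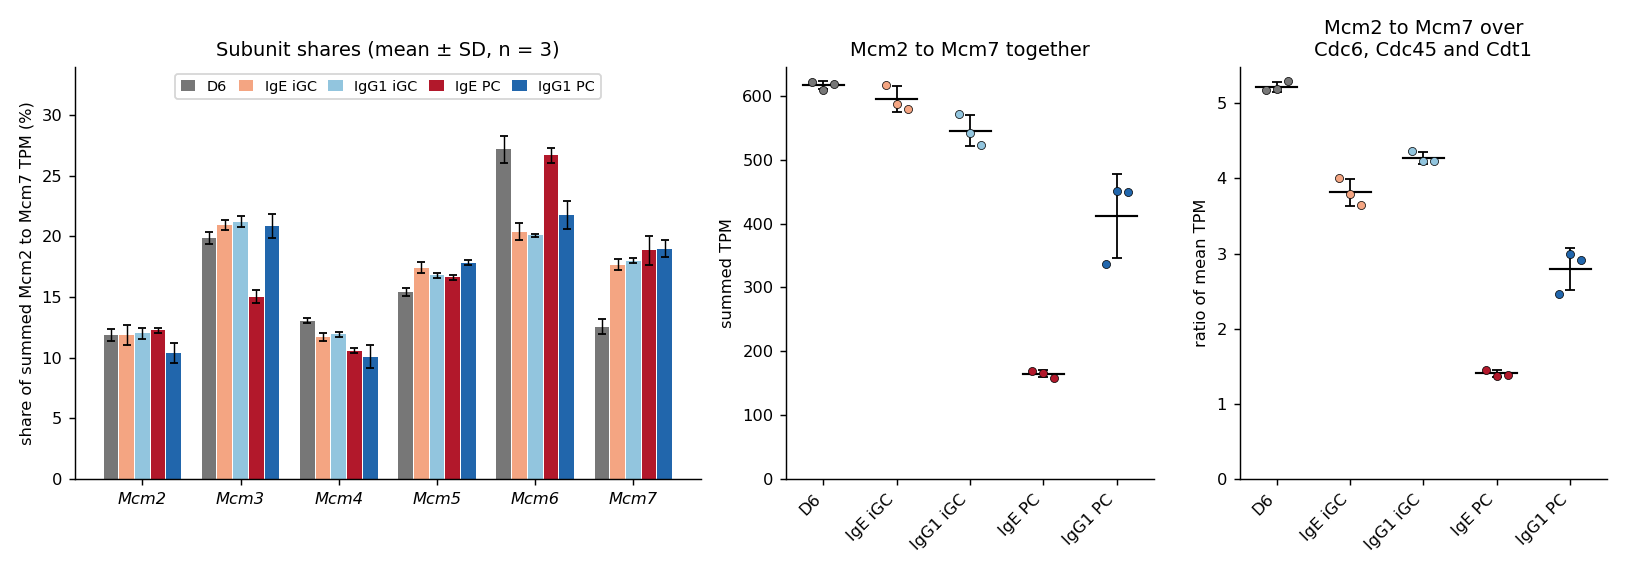
Left, share of each subunit in summed Mcm2 to Mcm7 TPM, as group means with SD (n = 3). Middle and right, summed Mcm2 to Mcm7 TPM and the ratio of its mean to the mean TPM of Cdc6, Cdc45 and Cdt1, with 1 point per library and group means ± SD. The IgE PC libraries are lowest in both, at ratios of 1.37 to 1.45, and Mcm3 has its smallest share there, 15.02%.

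The difference between iGC and PC, called a step here, was not the same in the 2 isotypes. Both were sorted on day 8, so rises, falls and changes between them are differences between groups. They are not courses followed in time. Within IgE, all 6 hexamer genes and Mcm10 were lower in PC, while Cdc6, Cdc45 and Cdt1 were called higher. In this comparison 33.6% of all genes were lower and 30.5% higher by edgeR. Mcm3 fell by 1.56 on the log2 scale (SE 0.07, adjusted p = 2.48e-11), Mcm4 by 1.26, Mcm5 by 1.18, Mcm2 by 1.09, Mcm7 by 1.08, Mcm10 by 0.92 and Mcm6 by 0.74. The higher calls were small: Cdt1 0.44 ± 0.06 (adjusted p = 4.12e-06), Cdc6 0.28 ± 0.08 (adjusted p = 0.00712) and Cdc45 0.21 ± 0.07 (adjusted p = 0.0108). Without IgE iGC replicate 2, Cdc45 was not called (0.17, adjusted p = 0.0619).

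These 3 higher calls turned with the scale. Under total-count scaling Cdt1 was -0.03, Cdc6 -0.19 and Cdc45 -0.26, with the median of all genes at -0.55. On log2(TPM + 1) with limma they were -0.30, -0.38 and -0.51, with the median at -0.49, so that they lay near the middle of all genes. The 7 falls were called under all 14 alternatives, with Mcm3 between -2.29 and -1.50. All calls split 4788 higher and 5270 lower here, 2651 and 8743 under total-count scaling, and 1838 and 9583 on TPM.

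Within IgG1, none of the 10 was lower in PC and 7 were higher, beside 29% of all genes called lower and 30.1% higher by edgeR. Cdc6 was 1.98-fold higher (0.99 ± 0.08, adjusted p = 6.64e-08), Cdc45 1.83-fold (0.87 ± 0.06, adjusted p = 2.12e-08) and Cdt1 1.53-fold (0.62 ± 0.06, adjusted p = 2.19e-07). Mcm10 was 1.44-fold higher (0.53 ± 0.07, adjusted p = 1.91e-05). Mcm5, Mcm6 and Mcm7 rose by 0.28, 0.30 and 0.30, and Mcm2 (-0.09), Mcm3 (0.02) and Mcm4 (-0.05) were not called. Fibroblast markers moved with this step as well, 7 of 8 being higher in IgG1 PC. With IgG1 PC replicate 2 as the lone library of its group, the markers had a median of 0.47 in place of 1.82, Cdc6 was at 1.01 and Mcm10 at 0.60. Their part in the result was not tested.

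The hexamer values here depended on the scale too. Under total-count scaling Mcm5, Mcm6 and Mcm7 were 0.05, 0.07 and 0.07 and not called, and Mcm2 and Mcm4 were called lower (-0.33 and -0.28). The member calls then numbered 4 higher and 2 lower. On TPM they numbered 2 higher and 6 lower, with the median of all genes at -0.42. All 6 hexamer genes were the lower ones, from -0.65 for Mcm4, -0.61 for Mcm2 and -0.44 for Mcm3 to -0.30 for Mcm6, while Cdt1 was at -0.01 and Mcm10 at 0.10. Without IgG1 PC replicate 2, Mcm4 was called lower (-0.16, adjusted p = 0.0441). Cdc6 and Cdc45 were called higher under all 15 alternatives. All calls split 4720 higher and 4553 lower, 3226 and 6840 under total-count scaling, and 1645 and 9247 on TPM.

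The difference between the 2 steps was tested directly, as the change from iGC to PC in IgE minus that in IgG1. It was negative for 9 of 10 licensing genes, beside 23.1% of all genes with a negative and 19.8% with a positive call by edgeR. The values were -1.59 ± 0.10 (SE) for Mcm3, -1.46 for Mcm5, -1.45 for Mcm10, -1.38 for Mcm7, -1.21 for Mcm4, -1.04 for Mcm6 and -0.996 for Mcm2, with adjusted p from 1.06e-08 to 8.62e-07. Cdc6 at -0.71 (adjusted p = 0.000183) and Cdc45 at -0.66 (adjusted p = 4.44e-05) were called as well. Cdt1 at -0.17 ± 0.08 was not (adjusted p = 0.0956), though it was called at -0.41 with total-count scaling (adjusted p = 0.000453), at -0.29 on TPM (adjusted p = 0.0286) and at -0.23 without IgG1 PC replicate 2 (adjusted p = 0.0113). The other 9 were called negative under all 21 alternatives. Fibroblast markers were negative as well, with 7 of 8 called, and their part was not tested. All calls split 3101 positive and 3632 negative, 1542 and 5603 under total-count scaling, and 1286 and 3059 on TPM.

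Between the iGC groups, sorted on the same day as the plasma cells, the isotypes differed little. IgE iGC and IgG1 iGC had 2 licensing genes called, both higher in IgE, beside 1.99% of all genes called higher and 1.88% lower by edgeR. Cdc45 was 1.27-fold higher (0.34 ± 0.07, adjusted p = 0.00652) and Cdt1 1.23-fold higher (0.29 ± 0.06, adjusted p = 0.00707). The other 8 had log2 fold changes of 0.06 (Mcm3) to 0.20 (Cdc6), all above 0. Libraries of the 2 groups did not overlap for Cdc45, Cdt1, Mcm5 and Mcm7, and overlapped for the remaining 6. How many of all genes had no overlap was not computed. DESeq2 also called Mcm5 (0.20, adjusted p = 0.0108) and Mcm7 (0.15, adjusted p = 0.0242), and Cdc6 was called without IgG1 iGC replicate 1 (0.31, adjusted p = 0.0394).

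The day 8 groups were also set against the D6 culture, which differs from them in day, feeder contact, IL-4 and sorting, so that these cannot be told apart. The 4 comparisons share the D6 libraries. In IgE iGC, 6 licensing genes were higher and 1, Mcm6, lower (-0.32 ± 0.06, adjusted p = 0.00031), beside 32.8% of all genes higher and 36.3% lower by edgeR. In IgG1 iGC, 4 were higher and 3 lower, beside 32.4% and 36% of all genes. Cdc45, Cdt1, Mcm7 and Mcm10 were higher than at D6 in both iGC groups, Cdc45 by 0.82 and 0.48 and Mcm7 by 0.65 and 0.51 in IgE and IgG1.

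In IgE PC against D6, 2 were higher and 7 lower, beside 36.9% and 39.5% of all genes. Cdt1 was 2.15-fold higher (1.10 ± 0.06, adjusted p = 6.64e-11) and Cdc45 2.04-fold higher (1.03 ± 0.07, adjusted p = 8.93e-10), while Mcm3 fell by 1.39 and Mcm4 by 1.32. The higher calls shrank to 0.23 for Cdt1 and 0.15 for Cdc45 on TPM, where 8 members, Cdc6 among them, were lower. In IgG1 PC against D6, 6 were higher and 2 lower, beside 35.9% and 36% of all genes. Cdc45 was 2.55-fold higher (1.35 ± 0.07, adjusted p = 6.95e-11), and Mcm4 (-0.22) and Mcm6 (-0.18) were lower. On TPM 3 members were higher and 5 lower, with Cdc45 at 0.62, and without immunoglobulin genes 7 were higher and none lower, with Mcm4 (adjusted p = 0.0573) and Mcm6 (adjusted p = 0.0883) not called.

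Genes of mitosis are given for contrast. All 20 were higher than at D6 in each of the 4 day 8 groups, with medians of 1.04 to 1.35, while the feeder markers had 4 to 7 of 8 lower. On TPM, 5 of the 20 mitosis genes were higher and 2 lower in IgE PC, and 18 to 20 were higher in the other groups.

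Several of the D6 calls rested on 1 library or on the scale. The Mcm3 call in IgE iGC (0.17, adjusted p = 0.0349) was lost without any 1 of the D6 libraries or IgE iGC replicate 1, with adjusted p of 0.0528 to 0.126. The Mcm4 call in IgG1 iGC (-0.18, adjusted p = 0.0465) was lost without any D6 library or IgG1 iGC replicate 2 or 3, with adjusted p of 0.0865 to 0.211. In IgG1 PC, Mcm4 was not called without IgG1 PC replicate 1 (-0.13, adjusted p = 0.0586), where Mcm3 was called instead (0.21, adjusted p = 0.00501), and Mcm6 was not called without D6 replicate 1 or IgG1 PC replicate 3 (-0.15 in both). Mcm5 in IgG1 iGC was called without IgG1 iGC replicate 3 (0.17, adjusted p = 0.0354), and Cdc6 in IgE PC without IgE PC replicate 3 (0.23, adjusted p = 0.0332). On TPM, Mcm7 in IgG1 PC was at 0.00 in place of 0.81 and Mcm5 at -0.38 in place of 0.41. All calls split 5792 higher and 6191 lower in IgE PC and 5636 and 5645 in IgG1 PC. Under total-count scaling they split 3311 and 9032, and 3964 and 7370, with medians of -0.57 and -0.27, and on TPM 2114 and 10420, and 2060 and 9822, with medians of -0.59 and -0.47.

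Related replication genes were compared between the plasma cell groups from lists drawn up with earlier results of these data known. In the list of origin recognition and licensing control, 8 of 16 genes were lower in IgE PC and 5 higher, with a median of -0.25, beside 30.7% of all genes lower and 27.4% higher and a median of -0.05. Orc1 and Orc6, subunits of the origin recognition complex, were at -0.78 and -1.17, while Orc3, Orc4 and Orc5 of the same complex were called higher, at 0.20, 0.71 and 0.45. Higher calls in this list fell from 5 to 2 under total-count scaling and on TPM. Gmnn, which encodes the CDT1 inhibitor geminin, was at -0.47 and Dtl, the adaptor for CDT1 destruction, at -0.68, both called, and Mcmbp, an MCM-binding protein, was not called (0.02).

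The list of origin firing and CMG assembly had 12 of 15 genes lower and none higher, with a median of -0.82. Cdc7, the kinase that phosphorylates the MCM hexamer, was 7.31, 6.76 and 7.15 CPM in IgE PC and 17.9, 22.8 and 20.5 in IgG1 PC, a log2 fold change of -1.53 ± 0.09 (adjusted p = 2.32e-09). Its activator Dbf4 was not called (0.04, adjusted p = 0.722). The GINS subunits were lower, with Gins1 at -0.99, Gins2 at -1.41, Gins3 at -0.52 and Gins4 at -0.53. Cdc45, their partner in the helicase, was at -0.32.

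Of the DNA polymerases and fork proteins, 24 of 26 were lower and none higher, with a median of -0.89. Pole, the catalytic subunit of the leading strand polymerase, was at -1.29, and Pcna, the sliding clamp, at -0.90. All 9 genes of deoxynucleotide supply were lower, with a median of -1.22 and Rrm2, a subunit of ribonucleotide reductase, at -0.65. The median of the licensing genes, -0.99, lay within the range of these list medians. Under total-count scaling and on TPM, the firing, polymerase and deoxynucleotide lists had 13 or 14, 25 or 26 and 9 genes lower and none higher.

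The lists of E2F and G1 to S control and of mitosis moved less, with medians of -0.23 and -0.27. In the former 8 of 15 genes were lower and 5 higher, with values from -0.85 to 0.61. The named genes of this list do not include the 5 higher ones. They were E2f1 at -0.85, E2f8 at -0.64, E2f7 at -0.42, E2f2 at -0.38 and Ccne1, a G1 to S cyclin, at -0.27, all called lower. Ccne2 at -0.23 (adjusted p = 0.356) was not called. Among 20 mitosis genes 10 were lower and none higher, and 14 to 19 were lower on those 2 scales. From IgG1 iGC to IgG1 PC, 11 of 20 mitosis genes were higher and none lower, but on TPM 2 were higher and 11 lower, so no direction is given for that step.

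**Figure D5:**
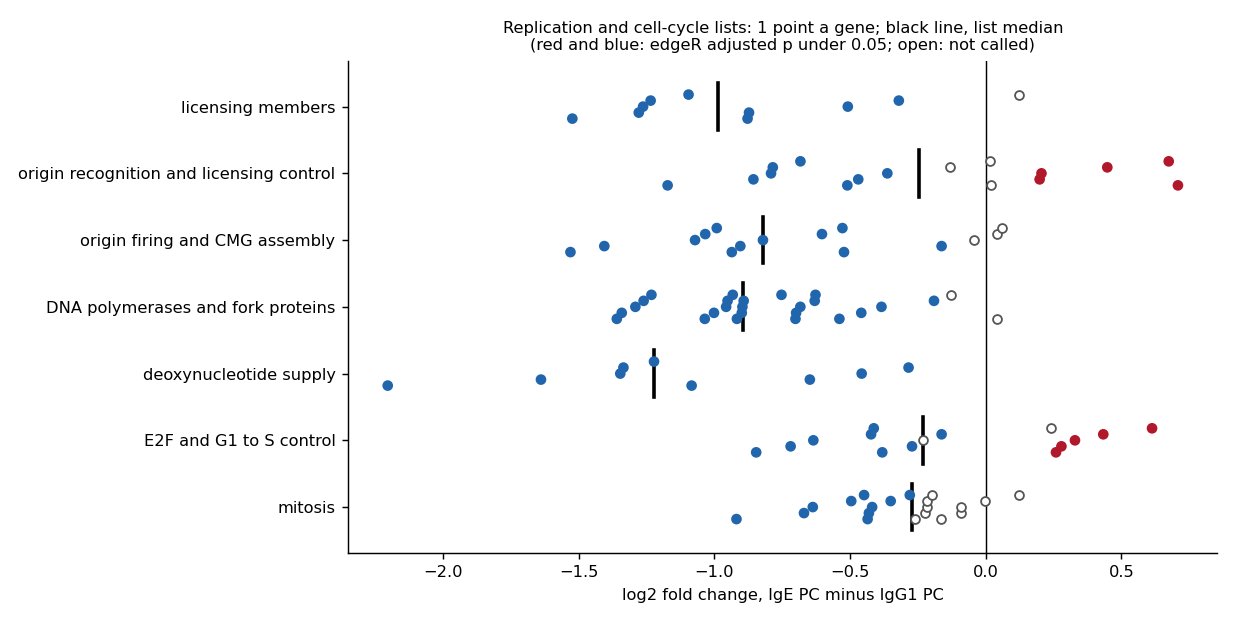
Log2 fold changes of IgE PC minus IgG1 PC for the licensing genes and 6 related lists, with 1 point per gene and a black line at each list median. Medians of the licensing genes (-0.99), origin firing (-0.82), polymerases (-0.89) and deoxynucleotide supply (-1.22) lie left of those of mitosis (-0.27), E2F control (-0.23) and origin recognition (-0.25), and red points, called higher, occur in 2 lists.

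The genes most like the licensing genes were ranked by Pearson correlation over the 15 libraries with the mean z-score of the 10 members, among genes with a mean of at least 10 CPM. The 15 points are 5 groups of 3, so r mainly describes group means and is given without a test. E2f1, the transcription factor, ranked first with r = 0.98, followed by Chaf1a, a histone chaperone subunit at replication forks, with 0.97 and Timeless, a fork protection factor, with 0.95. Clip2 (0.94), Mrpl49 (0.93), Gm15387 (0.93), Pole (0.92) and Slc25a10 (0.92) completed the first 8. E2f1 measured 19.2, 19.5 and 20.2 CPM at D6, 25.5, 25.3 and 23.1 in IgE iGC, 23.6, 20.8 and 19.7 in IgG1 iGC, 14.5, 15.6 and 14.01 in IgE PC, and 26.6, 25.4 and 27.4 in IgG1 PC. Like the Mcm genes it was lowest in IgE PC without overlap. The mean z-score used for the ranking was itself lowest in IgE PC, so this place is no separate result. Among the members themselves, each of which enters the mean, r was 0.96 for Mcm10, 0.95 for Mcm7 and 0.95 for Mcm5, 0.72 to 0.84 for Mcm2, Mcm3, Mcm4 and Mcm6, and 0.37 for Cdc6, 0.28 for Cdc45 and -0.03 for Cdt1.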

How the data were processed

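PolyA RNA from 15 libraries was sequenced as single-end, strand-specific 76 bp reads, per the labels' protocols. Per the submitters' processing notes, the tools were cutadapt 1.9.1, STAR 2.5.2a, RSEM 1.3.0 and DESeq2 1.12.3 with build GRCm38. The annotation, filters and counting strand are not given in the sources used here. The authors deposited 1 table of RSEM expected counts and TPM values for 51912 genes. Expected counts divide reads that fit several genes and need not be whole, and TPM values are scaled by the authors to effective length and library total. Of the 10 genes, only Mcm7 and Cdc6 had fractional expected counts.

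Expected counts were rounded to whole numbers and filtered with filterByExpr (minimum count 10, minimum total 15), which left 15692 genes. Libraries were scaled by TMM. The count model had 1 coefficient per group over the 15 libraries (edgeR 4.0.16 in R 4.3.3, glmQLFit with robust dispersion and glmQLFTest), with Benjamini-Hochberg adjustment over all genes in each of 9 comparisons and a threshold of 0.05. The common dispersion was 0.0109 with 10 residual degrees of freedom. The fit was tested on data simulated with the same dispersion for all genes and groups. Unequal spread between groups and the immunoglobulin share of plasma cells were not part of that simulation. TPM was used for shares, for ratios within a library and, as log2(TPM + 1) with limma 3.58.1, as an alternative. Other alternatives were DESeq2 1.42.0, total-count scaling, leaving out immunoglobulin genes, no filter, fitting only the groups compared, no robust dispersion, a replicate block and leaving out each library. Groups and replicate numbers came from the titles, and no library was left out. Replicates are labelled as biological. No batch is labelled.

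The members, the lists and the named genes were chosen with earlier results of these data known. The named genes are the 10 members, 19 replication and cell cycle genes and the 8 genes most correlated with the members. Additional genes named from the lists (Orc3, Orc4, Orc5, Gins3, Gins4) were chosen after their values were seen. Positions of neighbouring genes came from GENCODE vM21 (GRCm38) and promoters from RefSeq (GRCm38.p6).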

Additional observations from a re-analysis of the deposited data

Results flagged for a closer look

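For 9 of the 10 licensing genes, IgE and IgG1 differed in their change from iGC to PC, by a test of the difference itself. The differences (IgE minus IgG1, log2) were -0.996 for Mcm2, -1.59 for Mcm3, -1.21 for Mcm4, -1.46 for Mcm5, -1.04 for Mcm6, -1.38 for Mcm7, -1.45 for Mcm10, -0.71 for Cdc6 and -0.66 for Cdc45. Across all genes tested by edgeR, 42.9% had such a difference in either direction. Groups of 3 libraries are too small for a test of single outlying libraries.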

How the results depend on the processing

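The falls of Mcm2 to Mcm7 and Mcm10 in IgE PC against IgG1 PC and against IgE iGC, and their isotype differences, kept their direction and their call under every alternative run (15, 14 and 21). Signs turned mostly with the scale. Under total-count scaling the values became -0.13 for Cdt1 in IgE PC against IgG1 PC, -0.19, -0.26 and -0.0254 for Cdc6, Cdc45 and Cdt1 in IgE PC against IgE iGC, -0.20 for Mcm3 in IgG1 PC against IgG1 iGC, -0.39 for Cdc6 in IgE PC against D6 and -0.14 for Mcm3 in IgG1 PC against D6. With limma on log2(TPM + 1) they became -0.0297 for Cdt1 in IgE PC against IgG1 PC, -0.38, -0.51 and -0.30 for Cdc6, Cdc45 and Cdt1 in IgE PC against IgE iGC, and -0.44, -0.32, -0.30, -0.34 and -0.00597 for Mcm3, Mcm5, Mcm6, Mcm7 and Cdt1 in IgG1 PC against IgG1 iGC. Against D6 they became -0.0586 for Mcm2 in IgE iGC, -0.0832 and -0.0552 for Mcm3 and Mcm5 in IgG1 iGC, -0.68 for Cdc6 in IgE PC, and -0.52, -0.38 and -0.0817 for Mcm3, Mcm5 and Cdc6 in IgG1 PC. Mcm2 in IgG1 iGC against D6, at -0.03, was 0.0336 without immunoglobulin genes and 0.0309 with only the groups compared. With IgG1 PC represented by replicate 2 alone, chosen after seeing the data, Mcm4 was 0.12 against IgG1 iGC and 0.0061 against D6. The cause was not tested in any of these.

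Leaving out 1 library, the values not called ran from -0.0645 to 0.0120 for Mcm2 in IgG1 iGC against D6, and from -0.0191 to 0.0897 for Mcm3 in IgG1 PC against IgG1 iGC. Mcm4 in the latter comparison ran from -0.16, called without IgG1 PC replicate 2, to 0.0325. Between the iGC groups, 607 genes were called by edgeR, 323 to 403 when a library of either group was left out, 937 by DESeq2 and 1503 with only the groups compared. Licensing genes called there numbered 2, and 4 by DESeq2. For the isotype difference 6733 genes were called, and 4345 with limma on TPM.

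Same-numbered libraries did not deviate together (mean correlation -0.03 over 30 pairs, against 0.01 over 60 pairs of other numbers), so the numbers were not taken as pairs. With a replicate block, Mcm3 in IgE iGC against D6 (0.17, adjusted p = 0.0504) and Mcm4 in IgG1 iGC against D6 (-0.18, adjusted p = 0.0617) were not called, and no other licensing gene's call changed. Counts of genes called moved from 9119 to 9005 between the plasma cell groups and from 6733 to 6533 for the isotype difference.

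Depth did not limit the licensing genes, whose lowest count was 446. The spread over 3 libraries limits small differences, and the scale between libraries limits the direction of the genes named above as turning with it.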
